A study of Mus musculus with 12 samples.

Results

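The genes described here are 7 genes of the cardiac conduction system: the channel genes Hcn2 and Hcn4, the connexin gene Gja5, the contactin gene Cntn2 and the transcription regulators Tbx3, Irx3 and Id2. They were taken by name and matched by symbol to the Ensembl identifiers of both deposited count tables. All 7 of 7 were found among the 38293 genes of each table, and all 7 passed the filter on low counts in both, where 13756 and 13018 genes were tested. RNA of mouse hearts had been sequenced in 4 groups of 3 animals, 8 to 9 weeks old by the study's methods. WT sham hearts came from wild-type C57Bl/6J mice after sham surgery, for which the labels give no day. WT IR hearts came from the same strain 14 days after ischaemia-reperfusion (IR), in which a coronary artery was ligated for 1 h and then released. Zeb2 WT IR and Zeb2 cTg IR hearts, also taken 14 days after IR, came from littermates without and with a cardiomyocyte-specific Zeb2 transgene, whose labels give C57Bl/6J as well. In Zeb2 cTg mice a Cre recombinase under the αMHC (Myh6) promoter removes a stop cassette in front of a Zeb2 copy in the Rosa26 locus, so the transgene is limited to cells that use that promoter. The sources differ on the tissue: the labels name the left ventricle, the methods the remote zone, and the design text the infarct with its border zone.

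The heartbeat starts in the sinus node, where HCN channels carry an inward current that opens on hyperpolarization and drives the spontaneous depolarization of pacemaker cells. The impulse then passes the atrioventricular node and spreads over the ventricles through the His bundle and the Purkinje fibres, whose cells are coupled by connexins and are rich in sodium channels. Hcn4 is the main HCN gene of the nodes, and Hcn2 is the more abundant one of working ventricular muscle. In adult ventricles Cntn2 marks Purkinje cells, Gja5 marks Purkinje cells and arterial endothelium, Tbx3 keeps nodal and proximal conduction cells from taking a working muscle fate, Irx3 adjusts connexin expression in the His-Purkinje system, and Id2 is an inhibitor of basic helix-loop-helix factors that helps to form that system. Conduction cells are a small part of the ventricle, and in bulk RNA fewer cells of a type and less RNA per cell cannot be told apart.

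The promoter sequences of the 4 members called lower after IR in WT hearts are shown. Hcn2 and Irx3 did not keep that call after a correction for GC content. In the Zeb2 table only Cntn2 among them was called. The motif CACCTG was searched because ZEB2 is a factor that binds it. Each is the 250 bases before the RefSeq transcription start (GRCm38.p6), 5′ to 3′ on the gene's strand. Capitals mark CACCTG (ZEB motif) or AAGTG (core of the NKX2-5 site) on either strand, searched together with the T-box core GGTGTG. None of the marked motifs overlap.
Hcn2 (chr10:79716384-79716633, plus strand): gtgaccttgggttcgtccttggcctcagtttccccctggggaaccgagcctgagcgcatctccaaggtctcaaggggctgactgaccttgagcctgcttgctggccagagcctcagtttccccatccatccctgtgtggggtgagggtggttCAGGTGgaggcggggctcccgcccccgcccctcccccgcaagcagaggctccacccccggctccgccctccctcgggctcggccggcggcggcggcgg
Hcn4 (chr9:58822699-58822948, plus strand): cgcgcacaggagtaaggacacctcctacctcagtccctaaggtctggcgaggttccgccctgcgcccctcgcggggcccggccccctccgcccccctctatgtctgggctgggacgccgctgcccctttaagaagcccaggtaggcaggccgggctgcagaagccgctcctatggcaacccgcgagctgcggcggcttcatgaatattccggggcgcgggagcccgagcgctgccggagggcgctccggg
Cntn2 (chr1:132542941-132543190, minus strand): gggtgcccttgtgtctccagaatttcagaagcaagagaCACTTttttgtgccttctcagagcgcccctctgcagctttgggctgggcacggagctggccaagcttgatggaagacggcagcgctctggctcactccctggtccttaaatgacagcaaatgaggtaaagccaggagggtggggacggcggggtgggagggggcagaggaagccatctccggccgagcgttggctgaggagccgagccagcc
Irx3 (chr8:91801655-91801904, minus strand): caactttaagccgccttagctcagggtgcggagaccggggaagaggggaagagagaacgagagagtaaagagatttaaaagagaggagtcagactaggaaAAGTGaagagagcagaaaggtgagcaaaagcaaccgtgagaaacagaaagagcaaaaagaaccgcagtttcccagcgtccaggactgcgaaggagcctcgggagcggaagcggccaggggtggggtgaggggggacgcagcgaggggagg
The ZEB motif stood in Hcn2, starting 98 bases before the start site, and in 17.2% of all 32851 promoters of this length. The NKX2-5 core stood in Cntn2 (212 bases before the start), in Irx3 (150 bases) and in Gja5 (62 bases), against 40.7% of all promoters. The T-box core, found in 16.3% of all promoters, had no match in the 6 member promoters searched, and Id2 and Hcn4 held none of these letters. Tbx3 had no entry among the promoters. The GC content of these 250 bases was 71.2% for Hcn4, 70.4% for Hcn2, 61.2% for Cntn2 and 56.0% for Irx3, with a median of 52.4% over all promoters. A match of letters is a description of the sequence and shows no binding.

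The libraries held between 20215781 and 36816818 counts, of which mitochondrial genes took 60.6% to 73.5%, so that 5706340 to 11618213 counts per library remained for the rest. At this depth 1 CPM (counts scaled by library size with TMM factors within a table) stands for 17.2 to 37.8 counts, and the members rest on 7 to 439 counts per library. The deposited tables were normalized separately, so levels are compared only within a table. The check of the labels came first. Zeb2 stood at 54.7, 57.8 and 67.0 CPM in the Zeb2 WT IR libraries and at 55.5, 56.9 and 58.7 CPM in those labelled Zeb2 cTg IR, a log2 difference of -0.07 ± 0.12 (SE) with an adjusted p of 0.750. No higher Zeb2 counts were thus shown for the labelled Zeb2 cTg libraries, which are called by their label throughout. Whether transcripts of the transgene were counted on that gene is not given in the sources used here, so these counts do not settle whether more Zeb2 RNA was made, and whether every label is right was not tested. The cardiomyocyte list of 20 markers summed to 51067 to 76904 CPM in every library, and in the atrial list of 6 markers Sln and Bmp10 were at 0 counts in all WT sham and Zeb2 WT IR libraries.

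The first comparison asked how the injured WT heart differs from the sham-operated one. Of the 7 members, 4 fell after IR (Hcn2, Hcn4, Cntn2 and Irx3), 1 rose (Id2), and Gja5 and Tbx3 did not pass the test (edgeR's quasi-likelihood test, adjusted p under 0.05 over all genes tested). Over all 13756 genes 9.74% were called lower and 11% higher. The groups did not overlap in 5 members, against 39.8% of all genes, and the median log2 change was -0.82 over the members and 0.0064 over all genes. After a correction for GC content these medians were -0.37 and -0.073.

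Hcn2 codes for a pacemaker channel that opens faster than the one coded by Hcn4. It stood at 9.27, 7.70 and 7.68 CPM in the WT sham libraries (245, 251 and 132 counts) and at 5.72, 3.36 and 4.06 CPM after IR (183, 127 and 109 counts). Every injured heart lay below every sham heart. The mean went from 8.22 ± 0.91 to 4.38 ± 1.2 CPM (SD, n = 3), a fall by 0.91 ± 0.18 (SE) on the log2 scale or 1.88-fold, with an adjusted p of 0.0111 by edgeR. The transcript of Hcn2 (chr10:79716634-79736108 in GRCm38) has a GC content of 65.4%, against a median of 49.4% over the tested genes, and after a correction for GC content the change was -0.08 with an adjusted p of 0.716 (range over 12 alternatives 1.12e-05 to 0.716). Without WT sham replicate 2 the change was -0.98, with an adjusted p of 0.0555 (range over the 6 libraries left out in turn 8.06e-05 to 0.0555).

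Hcn4, the main channel gene of the sinus node, was the member with the fewest counts. In the sham hearts it gave 68, 98 and 34 counts (2.57, 3.00 and 1.98 CPM) and in the injured WT hearts 43, 40 and 26 counts (1.34, 1.06 and 0.97 CPM). The groups did not overlap. The mean went from 2.52 ± 0.52 to 1.12 ± 0.20 CPM, a fall by 1.18 ± 0.21 on the log2 scale or 2.27-fold (adjusted p = 0.00797, edgeR). Hcn4 lies at chr9:58823412-58863175 and has a transcript GC content of 58.0%. It passed with the GC correction, but not with all 12 libraries in 1 fit (-1.18, adjusted p = 0.0787; range over 12 alternatives 5.64e-05 to 0.0787) or without WT sham replicate 2 (-1.04, adjusted p = 0.0576; range over the libraries left out 0.000795 to 0.0576).

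Cntn2, a cell adhesion molecule of Purkinje cells, had the largest fall of the 7 members. Its sham values of 3.67, 3.96 and 3.90 CPM (97, 129 and 67 counts) lay close together, and after IR it stood at 1.81, 1.14 and 1.34 CPM (58, 43 and 36 counts). No injured heart reached even 2 CPM, and no sham heart fell below 3 CPM. From 3.84 ± 0.15 to 1.43 ± 0.35 CPM this was a fall by 1.43 ± 0.18 on the log2 scale or 2.69-fold (adjusted p = 0.00356, edgeR). The call held in all 12 alternatives (changes of -1.46 to -1.16) and in all 6 fits that left out a library (-1.64 to -1.27). Cntn2 lies at chr1:132509427-132543256.

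Gja5, a connexin gene, showed overlapping groups. It stood at 2.19, 2.88 and 2.97 CPM in sham hearts (58, 94 and 51 counts) and at 2.53, 1.83 and 1.72 CPM after IR (81, 69 and 46 counts), where WT IR replicate 1 lay within the sham range. The log2 difference was -0.40 ± 0.20, with a 95% interval from -0.85 to 0.05 and an adjusted p of 0.186. Without WT IR replicate 1 it was -0.59 and passed (adjusted p = 0.0330; range over the libraries left out 0.0330 to 0.415). Arterial endothelium also uses Gja5, and the arterial list of 7 markers summed to 32.2 to 33.5 CPM in sham and 25.3 to 30.7 CPM in WT IR hearts, with Dll4 and Hey1 lower and Gja4 higher; its part in the Gja5 values was not tested. Gja5 (chr3:96904693-97077416) overlaps Gpr89 on the opposite strand.

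Tbx3, the repressor of working muscle genes in the nodes, also showed overlapping groups. Sham hearts stood at 4.58, 3.92 and 5.06 CPM (121, 128 and 87 counts) and WT IR hearts at 3.53, 4.36 and 3.32 CPM (113, 165 and 89 counts). The log2 difference was -0.25 ± 0.15 (95% interval -0.59 to 0.09, adjusted p = 0.263). With size factors from the cardiomyocyte markers its sign changed (0.02). Tbx3 (chr5:119670669-119684724) overlaps the antisense gene Tbx3os1.

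Irx3, a homeobox regulator of the His-Purkinje system, fell in all 3 injured hearts. It stood at 5.37, 5.64 and 6.05 CPM in sham (142, 184 and 104 counts) and at 3.56, 3.44 and 2.57 CPM after IR (114, 130 and 69 counts), with no overlap. This fall by 0.82 ± 0.14 on the log2 scale, 1.76-fold, took the mean from 5.69 ± 0.34 to 3.19 ± 0.54 CPM (adjusted p = 0.00739, edgeR). Its transcript GC content is 62.5%, and with the GC correction the change was -0.37 with an adjusted p of 0.111, while the range over the 12 alternatives was 6.51e-05 to 0.144. Irx3 (chr8:91798525-91802067) overlaps its antisense partner Irx3os, and since the strand setting of the counting is not given in the sources used here, reads of the pair cannot be told apart.

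Id2 was the member that rose. It gave 3.74, 2.94 and 3.43 CPM in sham hearts (99, 96 and 59 counts) and 5.66, 10.6 and 16.4 CPM in WT IR hearts (181, 399 and 439 counts). The injured hearts spread over a far wider range than the sham hearts and all lay above them. The mean went from 3.37 ± 0.40 to 10.9 ± 5.4 CPM, a rise of 1.68 ± 0.33 on the log2 scale or 3.21-fold (adjusted p = 0.0106, edgeR). Without WT sham replicate 2 the change was 1.57 and missed the threshold (adjusted p = 0.0694; range over the libraries left out 9.36e-06 to 0.0694). Id2 (chr12:25093799-25097140) is expressed by many cell types, and the markers of other cells moved beside it: in WT IR replicates 1, 2 and 3 the 6 fibroblast markers summed to 1733, 2805 and 4332 CPM, against 470 to 864 CPM in sham, and the 6 macrophage markers to 191, 300 and 361 CPM, against 128 to 142 CPM. All 6 fibroblast and all 6 macrophage markers were called higher. Their part in the change of Id2 was not tested.

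**Figure D1:**
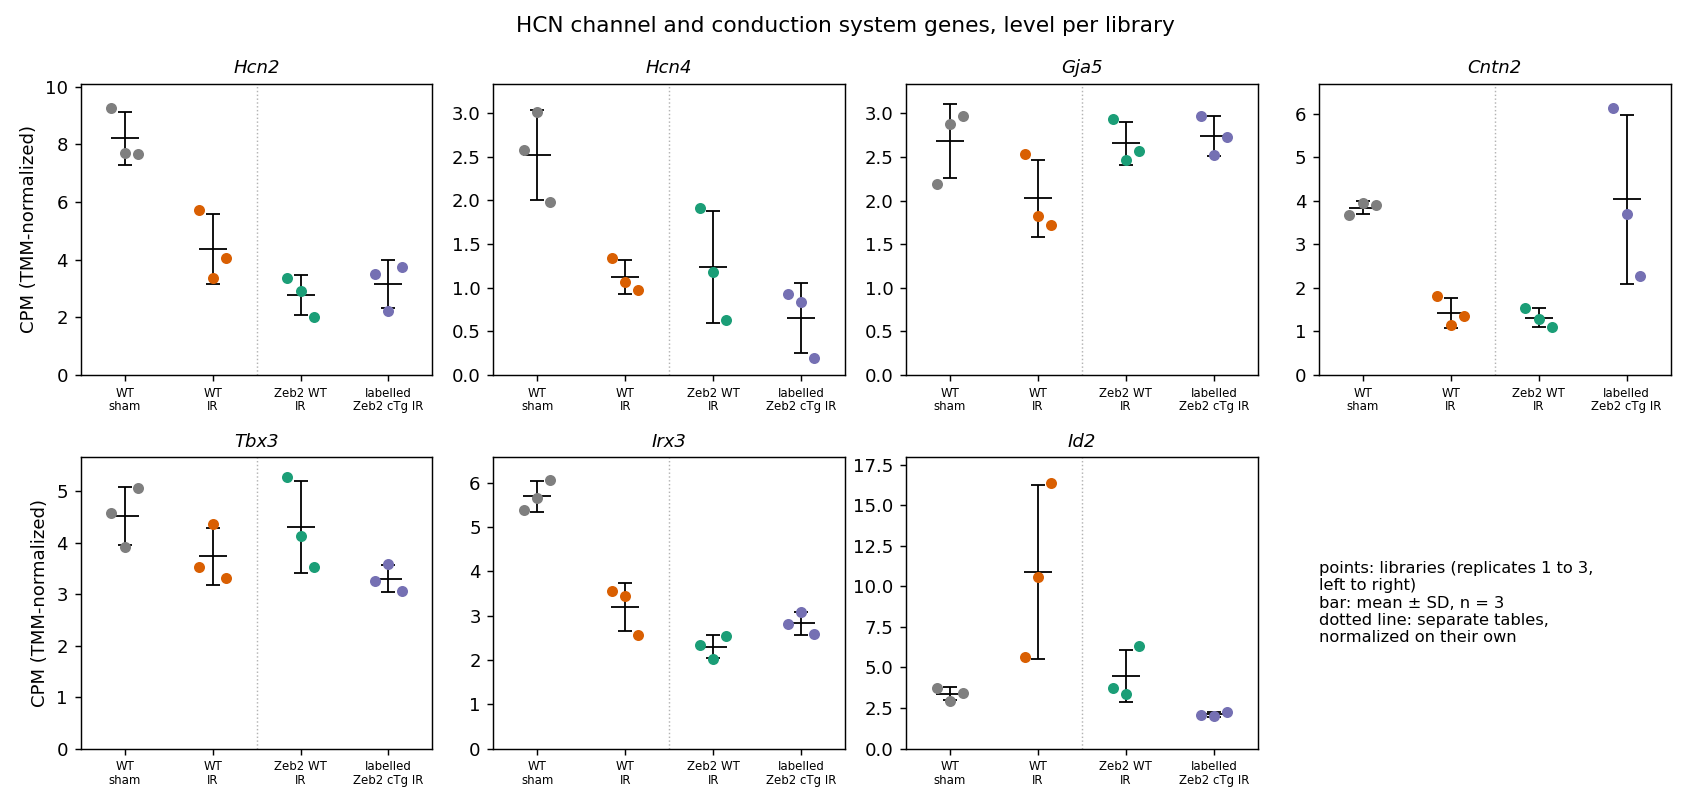
Level of each of the 7 members in every library, in TMM-normalized CPM from 0 upward on a linear axis; points are the 3 libraries of a group and bars the mean ± SD, with a dotted line between the separately normalized tables. The sham points of Hcn2, Hcn4, Cntn2 and Irx3 lie above all WT IR points, those of Id2 below them, and in the other table Cntn2 lies at 1.10 to 1.54 CPM in Zeb2 WT IR and at 2.27 to 6.12 CPM in the labelled Zeb2 cTg libraries.

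The cardiomyocyte markers fell beside the members, from 65974 to 72917 CPM in sham to 51067 to 65738 CPM in WT IR hearts, with 5 of 20 markers called lower. When the libraries were scaled to these markers instead of TMM, the median of all genes shifted to 0.29 on the log2 scale, and 3578 genes were higher and 291 lower, in place of 1519 and 1340. The same members passed on that scale, with changes of -0.65 for Hcn2, -0.90 for Hcn4, -1.16 for Cntn2, -0.55 for Irx3 and 2.01 for Id2. With the GC correction 1186 genes were higher and 1597 lower, and Hcn4, Cntn2 and Id2 kept their calls. Across genes the log2 change had a Spearman correlation of -0.29 with transcript GC content, given as a description, since genes are not independent replicates.

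Of the 32 other genes on the lists of conduction genes (HCN channels and their subunits, other pacemaking currents, factors of the nodes, and His-Purkinje genes) 24 were tested after IR in WT hearts. Of these 5 fell and 3 rose, against 9.74% called lower and 11% higher over all 13756 genes. The median log2 change of the 24 genes was -0.33 (members excluded), against 0.0064 over all genes. The falls included those of Nkx2-5, a homeobox factor of cardiac muscle and conduction cells, from 14.3 to 5.76 CPM (-1.30 ± 0.19), Cacna1g, a T-type calcium channel, from 9.92 to 5.12 CPM (-0.96 ± 0.13), the homeodomain protein gene Hopx (-0.67 ± 0.15) and Kcnj5, a subunit of the acetylcholine-gated potassium channel (-0.43 ± 0.12). Bmp4 (0.87 ± 0.20), Tbx18 (0.87 ± 0.16) and Smoc2 (0.81 ± 0.12), which are named as nodal factors but are also used by fibroblasts and other mesenchymal cells, rose. The fibroblast sum in these hearts was 1733 to 4332 CPM, and its part was not tested. Without WT sham replicate 2, the calls of Hopx, Kcnj5, Bmp4 and Tbx18 were lost. Those of Hopx, Kcnj5 and Bmp4 were also lost without WT sham replicate 1 or WT IR replicate 2, those of Hopx and Kcnj5 without WT sham replicate 3, and that of Kcnj5 without WT IR replicate 3 or with the cardiomyocyte size factors. Cacna1g and Smoc2 passed in all 6 fits without a library, and so did Nkx2-5, whose call was lost with the GC correction (-0.17).

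The closest relatives of the members showed how far each gene's change was shared. Hcn3 gave at most 5 counts per library. In the Irx family 4 of 5 tested genes fell: Irx1 from 1.60 to 0.408 CPM (-2.02 ± 0.33), Irx2 (-1.46 ± 0.31), Irx3 and Irx4, the ventricular member, from 12.2 to 6.77 CPM (-0.85 ± 0.13), while Irx5 did not pass (-0.41 ± 0.16). Irx2 was lost without WT sham replicate 1 or 2 or without WT IR replicate 2. The call of Irx3 was lost with the GC correction (-0.37), and the change of Irx5 ranged from -0.42 to 0.44 over the 12 alternatives. The share called lower over all genes tested was 9.74%. In the Id family Id1 fell from 9.98 to 4.73 CPM (-1.08 ± 0.12), a fall called in all 12 alternatives and all 6 fits without a library, so that 2 genes of this family were called in opposite directions, and Id3 stood at 11.1 and 12.1 CPM (0.13 ± 0.13). Of the connexins Gja1, the main one of ventricular muscle, stood at 227 and 205 CPM (-0.15 ± 0.11), Gjc1 at 9.08 and 11.3 CPM (0.33 ± 0.12), and neither passed. Gja4, a connexin of arterial endothelium, was higher (0.67 ± 0.20, adjusted p = 0.0407), but not in the fits without any 1 sham library or without WT IR replicate 2 or 3, and it passed in 9 of the 12 alternatives.

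The second comparison asked how hearts labelled Zeb2 cTg IR differ from those of injured littermates. Cntn2 was the 1 member called, and it was higher. Of the 13018 genes tested 2.14% were called higher and 1.51% lower. The groups did not overlap in 3 members (Cntn2, Irx3 and Id2), against 26.2% of all genes, and the median log2 difference was 0.04 over the members and 0.0059 over all genes. With the GC correction these medians were -0.44 and 0.014, and 6 members had a negative and 1 a positive difference.

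Cntn2 stood at 1.54, 1.30 and 1.10 CPM in the Zeb2 WT IR libraries (42, 32 and 33 counts) and at 6.12, 3.70 and 2.27 CPM in those labelled Zeb2 cTg IR (146, 97 and 81 counts). The lowest labelled Zeb2 cTg library lay above the highest Zeb2 WT library, and the 3 labelled libraries differed widely among themselves. The mean went from 1.31 ± 0.22 to 4.03 ± 1.9 CPM, a difference of 1.60 ± 0.35 on the log2 scale or 3.04-fold (adjusted p = 0.0415, edgeR). The call was lost without Zeb2 WT IR replicate 1, 2 or 3 (1.74, 1.60 and 1.49, adjusted p = 0.0655, 0.107 and 0.177) and without Zeb2 cTg IR replicate 1 (1.17, adjusted p = 0.120), within a range of 0.0215 to 0.177 over the libraries left out. It was also lost with the GC correction (1.30, adjusted p = 0.0695) and with limma-voom (1.45, adjusted p = 0.0781), where the 12 alternatives gave 0.000241 to 0.0781. Some markers of atrial muscle were also at other levels in the labelled libraries: Myl4 at a mean of 0.438 and 1.36 CPM (1.64 ± 0.41, adjusted p = 0.0606), Myl7 at 0.013 and 0.378 CPM, Sln at 0 and 0.066 CPM, Bmp10 at 0 and 0.128 CPM, and Stard10 at 1.41 and 2.20 CPM, whereas Dkk3 stood at 5.30 and 1.57 CPM. Their sum was 4.49 to 10.2 and 3.97 to 7.72 CPM, and their part in the Cntn2 values was not tested.

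Id2 lay on the other side. It stood at 3.74, 3.36 and 6.33 CPM in Zeb2 WT IR (102, 83 and 190 counts) and at 2.10, 1.98 and 2.27 CPM in the labelled Zeb2 cTg libraries (50, 52 and 81 counts), with no overlap. The log2 difference was -1.08 ± 0.26 (4.48 ± 1.6 and 2.12 ± 0.15 CPM, SD, n = 3), and the adjusted p of 0.0539 missed the threshold. It passed in 6 of 12 alternatives, whose adjusted p ranged from 0.00389 to 0.0748, and without Zeb2 cTg IR replicate 2 (0.0366; range 0.0366 to 0.194). The fibroblast markers summed to 1155, 821 and 1865 CPM in Zeb2 WT IR replicates 1 to 3 and to 482 to 593 CPM in the labelled Zeb2 cTg libraries, with 2 of 6 called lower, and the macrophage markers to 164 to 227 and 160 to 192 CPM. Whether they play a part in the Id2 values was not tested.

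**Figure D2:**
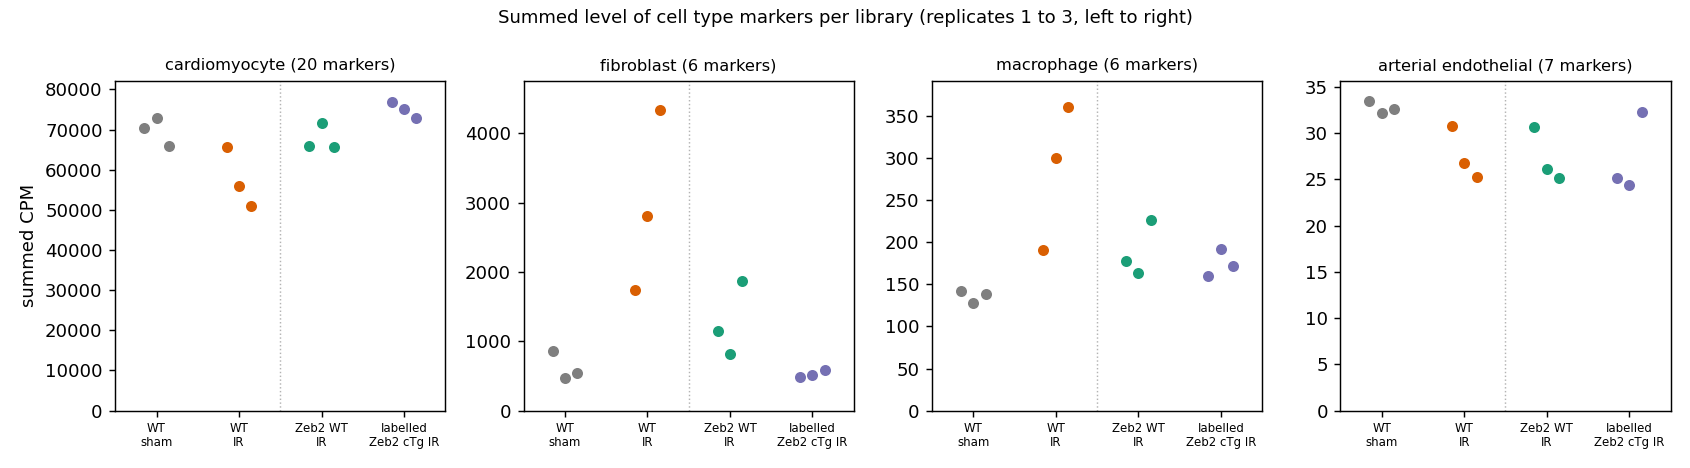
Summed level (CPM, linear axis from 0) of 4 lists of cell type markers in each library, replicates 1 to 3 from left to right in each group. The fibroblast sum spans 1733 to 4332 CPM in WT IR and 470 to 864 CPM in sham hearts, and the arterial endothelial sum stays between 24.4 and 33.5 CPM in all 12 libraries.

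The pacemaker channel genes gave no call in this table. Hcn2 stood at 3.37, 2.91 and 2.00 CPM in Zeb2 WT IR (92, 72 and 60 counts) and at 3.52, 2.21 and 3.76 CPM in the labelled Zeb2 cTg libraries (84, 58 and 134 counts). The groups overlapped, and the log2 difference of 0.20 ± 0.27 (95% interval -0.40 to 0.81, adjusted p = 0.663) turned to -0.44 with the GC correction. Hcn4 gave 52, 29 and 19 counts (1.91, 1.17 and 0.633 CPM) against 22, 22 and 7 counts (0.922, 0.840 and 0.197 CPM), and 2 of the 3 labelled libraries lay inside the Zeb2 WT range. Its log2 difference was -0.97 ± 0.56 with an adjusted p of 0.312. The 95% interval from -2.22 to 0.28 spans both a large fall and no change, and the Zeb2 WT IR libraries alone ranged from 0.633 to 1.91 CPM.

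The other 3 members did not pass either. Gja5 stood at 2.93, 2.47 and 2.57 CPM and at 2.98, 2.52 and 2.72 CPM (61 to 80 and 66 to 97 counts), with a log2 difference of 0.04 ± 0.19 (95% interval -0.37 to 0.46, adjusted p = 0.907) whose sign changed with the GC correction (-0.10) and with the cardiomyocyte size factors (-0.13). Tbx3 stood at 5.28, 4.13 and 3.53 CPM and at 3.27, 3.59 and 3.06 CPM (102 to 144 and 78 to 109 counts), where 1 labelled library lay inside the Zeb2 WT range (-0.38 ± 0.20, adjusted p = 0.264). Irx3 stood at 2.35, 2.02 and 2.53 CPM and at 2.81, 3.09 and 2.58 CPM (50 to 76 and 67 to 92 counts). The Irx3 groups lay close but did not overlap, and their difference of 0.29 ± 0.19 (95% interval -0.14 to 0.72, adjusted p = 0.372) was -0.24 with the GC correction.

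**Figure D3:**
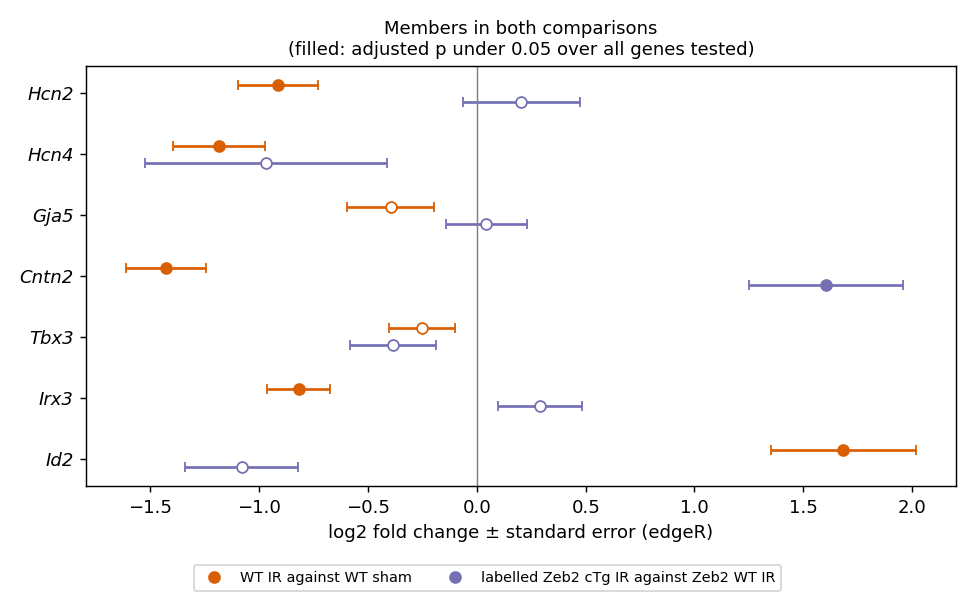
Log2 fold changes (points) with standard errors (bars) of the 7 members in both comparisons, filled where the adjusted p over all genes was under 0.05. After IR in WT hearts 5 points are filled, from -1.43 for Cntn2 to 1.68 for Id2, and in the labelled Zeb2 cTg comparison only Cntn2, at 1.60.

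In this table the log2 differences had a Spearman correlation of 0.55 with transcript GC content across genes, again as a description. With the cardiomyocyte size factors the median of all genes was -0.16, and 173 genes were higher and 314 lower, in place of 278 and 196. The cardiomyocyte markers summed to 65665 to 71534 CPM in Zeb2 WT IR and to 72905 to 76904 CPM in the labelled Zeb2 cTg libraries. On the cardiomyocyte scale Cntn2 (1.44) and Id2 (-1.26) passed.

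**Figure D4:**
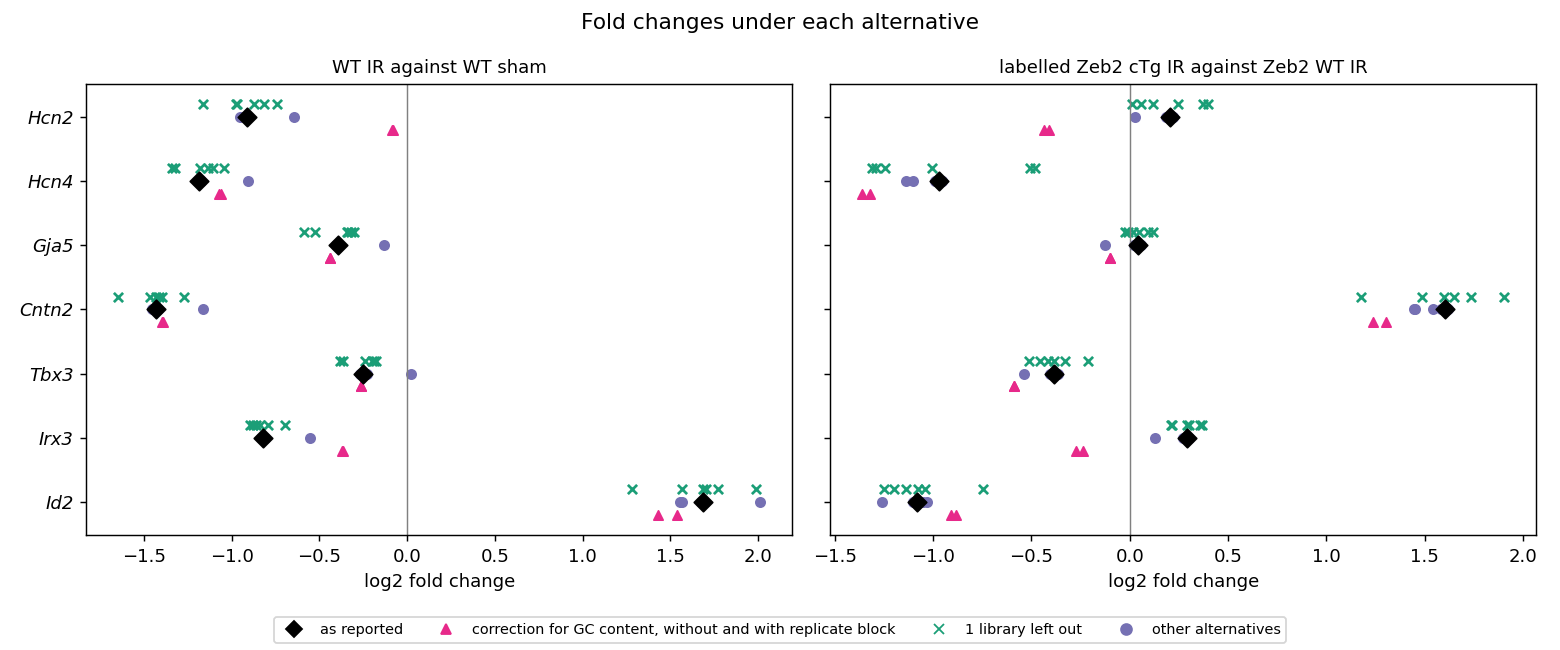
Log2 fold changes of the 7 members as reported (diamonds) and under each alternative, with the GC corrections, the fits without 1 library and the other alternatives marked apart. Hcn2 moves from -0.91 to -0.08 with the GC correction in WT hearts, whereas Hcn4, Cntn2 and Id2 stay near their reported values.

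Other conduction genes also differed between these groups. Of the 24 tested genes of the 4 lists 7 passed, each of them higher, against 2.14% called higher and 1.51% lower over all 13018 genes. The median log2 difference of the 24 genes was 0.43 (members excluded), against 0.0059 over all genes. These lists were chosen with earlier results of these data known. The T-type calcium channel gene Cacna1h went from 0.917 to 1.23 CPM to 18.6 to 51.6 CPM (5.14 ± 0.39, adjusted p = 0.000505, edgeR). In the separately normalized WT table Cacna1h was not called after IR (-0.40 ± 0.23, adjusted p = 0.232, edgeR). Scn10a, a sodium channel gene of sensory neurons and conduction cells, went from 7, 8 and 10 counts to 59, 60 and 47 counts (2.70 ± 0.35).

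The potassium channel subunit gene Kcne1 (1.33 and 7.69 CPM, 2.52 ± 0.25) and Rgs6, which dampens the response of nodal cells to acetylcholine (3.52 and 14.6 CPM, 2.05 ± 0.22), were also higher. These 4 genes (Cacna1h, Scn10a, Kcne1 and Rgs6) passed in all 6 fits without a library and in every alternative in which they were tested. They stood beside the atrial marker values given with Cntn2, whose part in these differences was not tested either. Nkx2-5 went from 1.15 to 4.41 CPM (1.94 ± 0.40), and it had been called lower after IR in the separate WT table. Its call was lost without Zeb2 WT IR replicate 2 or 3 and without Zeb2 cTg IR replicate 1 or 3, and it held in 11 of the 12 alternatives. Of the families, Irx4 was lower (5.64 and 2.57 CPM, -1.14 ± 0.23), though not without Zeb2 WT IR replicate 1 or 3 or Zeb2 cTg IR replicate 1 or 3, and Cntn5, a contactin of neurons, gave 27 to 52 counts against 3 to 5 counts (-3.22 ± 0.36) and passed in all 6 fits without a library. Gja1 stood at 212 and 170 CPM (-0.32 ± 0.12, adjusted p = 0.167).

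**Figure D5:**
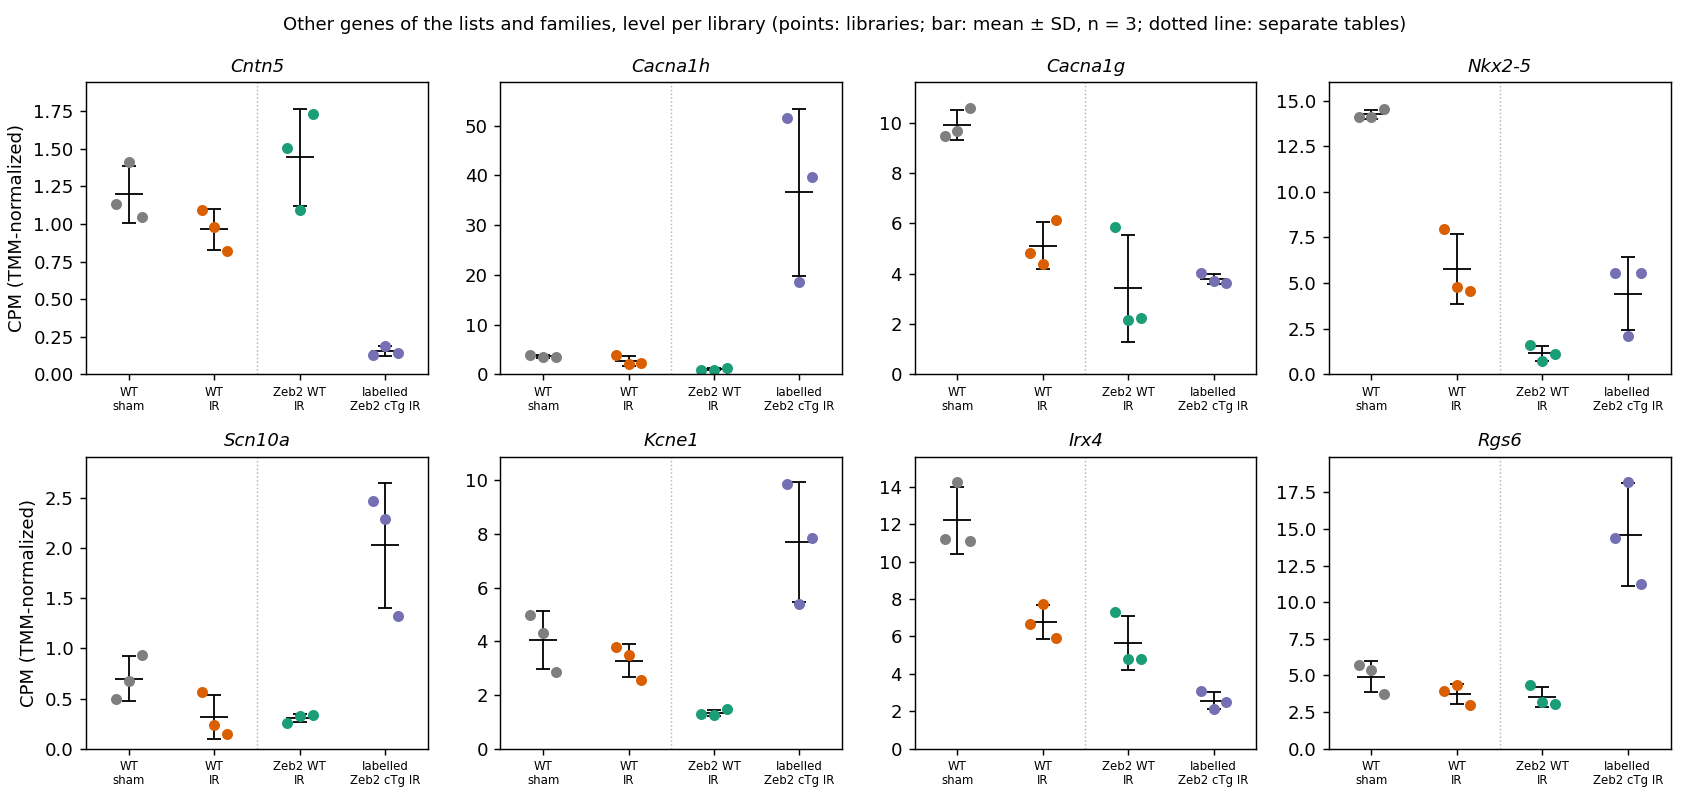
Level in CPM (linear axes from 0) of 8 genes of the lists and families in each library, with mean ± SD and a dotted line between the separately normalized tables. Right of the line, Cacna1h, Scn10a, Kcne1 and Rgs6 lie higher in all libraries labelled Zeb2 cTg IR than in Zeb2 WT IR and Cntn5 lies lower, and left of it Nkx2-5 and Irx4 lie lower in all WT IR hearts than in sham hearts.

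Levels of the members were set side by side per length of exons (CPM per kb). In sham hearts the order was Hcn2 (2.57 ± 0.29), Irx3 (2.06 ± 0.12), Id2 (1.38 ± 0.17), Tbx3 (0.683 ± 0.086), Gja5 (0.467 ± 0.074), Cntn2 (0.413 ± 0.016) and Hcn4 (0.412 ± 0.084), and the ranges of the last 3 overlapped. After IR in WT hearts Id2 came first at 4.45 ± 2.2, ahead of Hcn2 (1.37 ± 0.38) and Irx3 (1.16 ± 0.20), which were not separated, and Hcn4 (0.184 ± 0.032) and Cntn2 (0.154 ± 0.037) came last, also not separated. The means of the Zeb2 WT IR hearts had this order too, from Id2 at 1.84 ± 0.66 to Cntn2 at 0.141 ± 0.024. Among the labelled Zeb2 cTg libraries the ranges of Irx3 (1.02 ± 0.092), Hcn2 (0.991 ± 0.26) and Id2 (0.869 ± 0.060) overlapped from neighbour to neighbour at the top. There Cntn2 (0.433 ± 0.21) was not separated from Gja5 (0.477 ± 0.040), and Hcn4 was last at 0.107 ± 0.065.

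The genes whose pattern was most like that of each member were sought among 6879 well-expressed genes, by the mean of the Pearson correlations of log2 CPM over the 6 libraries of each table. They were Mknk2 and Ulk1 for Hcn2 (mean r = 0.97 and 0.96), Kif21a and E2f6 for Hcn4 (0.91 and 0.91), and Camk2g and Dennd1a for Gja5 (0.95 and 0.94). For Cntn2 they were Ubqln4 and Mapkap1 (0.96 and 0.95), for Tbx3 Ago4 and Gpatch8 (0.94 and 0.91), for Irx3 Aasdh (0.96), and for Id2 Lhfp and Sntb2 (0.99 and 0.99). These correlations are a description, since the libraries of a table share their groups and depth.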

How the data were processed

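Single-end reads of stranded libraries from 12 mouse hearts were aligned by the authors to mm10 and counted per gene (STAR 2.4.2a and HTSeq 0.6.1 in the submitters' processing notes). They deposited raw counts in 2 tables of 6 libraries, and all columns were used. Labels name an mRNA kit and the methods a total RNA kit. Groups and replicate numbers come from the labels. Within each table, counts were fitted in R 4.3.3 with edgeR 4.0.16 (TMM, filterByExpr with minimum count 10 and minimum total 15, two-sided quasi-likelihood test on group alone, Benjamini-Hochberg over all genes tested, threshold 0.05), tested on simulated data. The older DESeq release of the study's methods was not used here. Alternatives were RLE, upper-quartile and cardiomyocyte-marker size factors, no mitochondrial genes, other filters, the replicate block, a GC correction (loess offset per library, span 0.5), both together, all 12 libraries in 1 fit, DESeq2 1.42.0, limma-voom (limma 3.58.1), and each library left out.

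Positions, exon lengths and transcript GC come from GENCODE M21 (GRCm38). The members and lists were chosen with earlier results of these data known. The rule named every member, Zeb2, HCN and connexin genes, list genes under the threshold, and for each member the 2 genes most like it (log2 CPM, prior count 2; mean CPM of at least 5 in both tables). Some genes that meet it are not reported here.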

Additional observations from a re-analysis of the deposited data

How the results depend on the processing

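Cntn2 after IR in WT hearts kept its direction and its call in all 12 alternatives and all 6 fits without a library. The members called in that comparison were 5, and 3 with the GC correction, alone or with the replicate block, and 2 to 6 with 1 library left out. All genes called were 2859, 1424 with all 12 libraries in 1 fit, and 421 to 4980 with 1 library left out. Between Zeb2 WT IR and labelled Zeb2 cTg hearts 1 member was called, and 2 (Cntn2 and Id2) with RLE or cardiomyocyte size factors, no filter, the replicate block, the block with the GC correction, or DESeq2, and 0 with the GC correction or limma-voom. With 1 library left out it was 0 to 2, and 2 members had an unadjusted p under 0.05 in edgeR. All genes called there were 474, 1553 without a filter, 1813 with the replicate block, 826 with the GC correction, 1027 with DESeq2, 1932 in 1 fit, and 98 to 2419 with 1 library left out. Signs changed for Tbx3 in WT hearts with cardiomyocyte size factors (0.020). In the Zeb2 table they changed with the GC correction, without and with the block, for Hcn2 (-0.44 and -0.41), Irx3 (-0.24 and -0.27) and Gja5 (-0.10 and -0.099), and for Gja5 also with cardiomyocyte size factors (-0.13), without Zeb2 WT IR replicate 2 (-0.0064) and without Zeb2 cTg IR replicate 1 (-0.023), in a range of -0.023 to 0.12 over the libraries left out. The cause was not tested.

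Replicate numbers belong to different animals. Deviations of same-numbered libraries correlated at -0.034, 0.012 and -0.015 in the WT table and at 0.13, 0.26 and -0.042 in the Zeb2 table, so not every pair passed 0.1 and the numbers were not taken as pairing the samples, although 2 pairs of the Zeb2 table were above it; the replicate block changed the call of Id2 in the Zeb2 table (-1.05, adjusted p = 0.0148) and of no other member, and ended that of Gja4 in the WT table (0.69). Hcn4 had the fewest counts, 7 to 52 per library in the Zeb2 table.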

Other observations

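The other lists of cell type markers gave these sums of CPM over their markers in the 4 groups (WT sham, WT IR, Zeb2 WT IR and labelled Zeb2 cTg IR). Endothelial markers lay at 377 to 404, 312 to 390, 293 to 337 and 250 to 313 CPM. Smooth muscle and pericyte markers lay at 398 to 406, 430 to 495, 447 to 480 and 334 to 396 CPM. Schwann cell and neuron markers lay at 5.79 to 7.04, 8.94 to 10.1, 5.83 to 6.33 and 5.36 to 6.37 CPM, with Th at 0 counts in all 12 libraries. Epicardial markers lay at 5.18 to 8.74, 3.78 to 4.92, 2.38 to 5.91 and 1.38 to 4.16 CPM. Atrial markers lay at 6.07 to 6.93, 14.3 to 30.2, 4.49 to 10.2 and 3.97 to 7.72 CPM. This sum followed Dkk3, at a mean of 1.19, 17.1, 5.30 and 1.57 CPM, while Stard10 was lower in WT IR than in sham hearts (2.70 and 4.66 CPM, -0.78 ± 0.19, adjusted p = 0.0211 by edgeR) and Myl7 stood at 0.087 and 0.030 CPM. In the Zeb2 table the means of Myl4, Myl7, Sln, Bmp10 and Stard10 were higher in the labelled Zeb2 cTg libraries, opposite to Dkk3. Lymphocyte markers stayed under 1.6 CPM and adipocyte markers under 0.65 CPM in every library.

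Several conduction genes were too rare for a test. The nodal factor Shox2 gave 2 to 25 counts per library and Isl1 0 to 1, the HCN subunit genes Pex5l and Kcne2 gave 1 to 11 and 0 to 1, and Pcp4, a Purkinje cell gene, gave 1 to 6. Etv1, a factor of fast-conducting tissue, stood at 3.13 and 4.49 CPM in sham and WT IR hearts (0.56 ± 0.19, adjusted p = 0.0611) and at 4.43 and 6.52 CPM in Zeb2 WT IR and labelled Zeb2 cTg IR hearts (0.55 ± 0.17, adjusted p = 0.103). Tbx5, a T-box activator of conduction genes, stood at 8.80 and 7.04 CPM (-0.33 ± 0.14, adjusted p = 0.122) and at 5.56 and 9.02 CPM (0.70 ± 0.17, adjusted p = 0.0560), both by edgeR. Neither gene passed in either comparison.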
